A study of Homo sapiens with 29 samples.

Results

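The comparison described here sets 2 knockdowns in one cell line directly against each other: H460 cells in which NRF2 was knocked down (shNRF2) and H460 cells in which SNW1 was knocked down (shSNW1). H460 is an established human lung cancer line of large cell type that carries a KEAP1 mutation and therefore keeps NRF2 active without an added inducer. Each group held 3 libraries, all taken at 72 hours of knockdown with no drug named in the labels, and both carried a short hairpin RNA against the named target. Another 3 H460 libraries, with a hairpin against GFP (shGFP, a target these cells lack), entered no test here and are given only as levels beside the other values. The labels name neither the hairpin sequences, their number per target, the way they were delivered, nor whether the 3 libraries of a group came from separate cultures, so the p-values speak only of the variation among 3 libraries, part or all of which could be technical. The 6 libraries are 6 of the 29 samples of the series, which examines NRF2 target genes and NR0B1 in lung cancer lines by RNA sequencing and chromatin immunoprecipitation. Members were the genes with at least 1 FPKM (fragments scaled by transcript length and by library size) in at least 3 of these 6 libraries, which left 11673 of the 23710 genes in the table.

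NRF2, the product of NFE2L2, is a transcription factor that binds antioxidant response elements together with a small MAF protein and drives genes for glutathione synthesis, NADPH production, detoxification and iron handling. In resting cells KEAP1 presents it to a ubiquitin ligase for destruction, and lung tumours often lose that brake through KEAP1 mutation. SNW1, also called SKIP, is a component of the spliceosome and a transcription coregulator that has been linked to Notch, vitamin D receptor and SMAD signalling. NR0B1, also called DAX1, is an orphan nuclear receptor that lacks a usual DNA-binding domain.

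The 6 libraries held between 16708380 and 20046988 reads counted to genes. Across genes, Pearson's r of log2(FPKM + 1) lay between 0.996 and 0.998 for libraries of the same knockdown and between 0.931 and 0.937 for libraries of different knockdowns, and genes are not independent replicates. Keratin RNAs of simple epithelium were abundant in all 6 libraries, reaching 1423 FPKM for KRT19, whereas CDH1 did not exceed 0.0658 FPKM and EPCAM did not exceed 1.36 FPKM. Of the markers of other cells, CD3D, CD3E, MS4A1 and NKG7 (immune), CDH5 (endothelial) and SFTPA1, SCGB1A1 and KRT5 (lung lineage) stood at 0 in all 6 libraries. The summed fibroblast and endothelial markers lay between 66.2 and 68.2 FPKM in shNRF2 and between 37.7 and 39.3 FPKM in shSNW1. Of these 12 markers, 6 stayed under 1 FPKM in all 6 libraries: COL1A1, PDGFRA, THY1, PECAM1, VWF and CDH5. By the call rule given below, 5 of the 6 tested were higher in shNRF2 (83.3% against 40.3% of all tested genes). Of these 5, DCN, KDR and PDGFRB reached 1 FPKM in the shNRF2 libraries alone and so had to differ, which leaves 2 higher and 1 lower. The summed immune markers overlapped, at 28.6 to 32.3 FPKM in shNRF2 and 29.0 to 30.1 FPKM in shSNW1. In bulk RNA, fewer cells of a type and less RNA per cell cannot be told apart.

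Differences are given as shNRF2 minus shSNW1 on the log2(FPKM + 1) scale, so that a positive value means higher in shNRF2. This scale understates the change of genes near 1 FPKM. Called genes had a Benjamini-Hochberg adjusted p below 0.05 in limma, over all 11673 genes. Of these, 9322 (79.9%) were called: 4706 (40.3%) were higher in shNRF2 and 4616 (39.5%) were lower. For 9559 genes (81.9%) the 3 shNRF2 values did not overlap the 3 shSNW1 values. Genes named below from the lists by size of change, and the largest changes, could be chosen only without such overlap. Their separation was therefore set by the choice and is not a result. A difference of at least 2 fold was called for 1247 genes (10.7%), of which 832 (7.13%) were higher and 415 (3.56%) lower in shNRF2. The number of at least 2 fold lower depended on the scale: it was 657 with a pseudocount of 0.1 FPKM and 679 with voom on the recovered reads, where 1889 genes in all passed 2 fold. The median difference over all tested genes was 0.01, with quartiles of -0.34 and 0.38, and the median standard error was 0.0507. With so large a share of genes called, the share of a gene group that was called is to be read against 40.3% for higher and 39.5% for lower, and against 7.13% and 3.56% for calls of at least 2 fold. At the edge of the expression rule, 516 genes had exactly 3 libraries at 1 FPKM or more, with a median level of 1.13 FPKM, and 184 had exactly 2, with a median of 0.853 FPKM. Of the former, 338 passed through the shNRF2 libraries alone and 151 through the shSNW1 libraries alone, and such genes had to differ; where a gene group holds any, their number is given with its count, and those named there were picked after their values were seen.

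**Figure D1:**
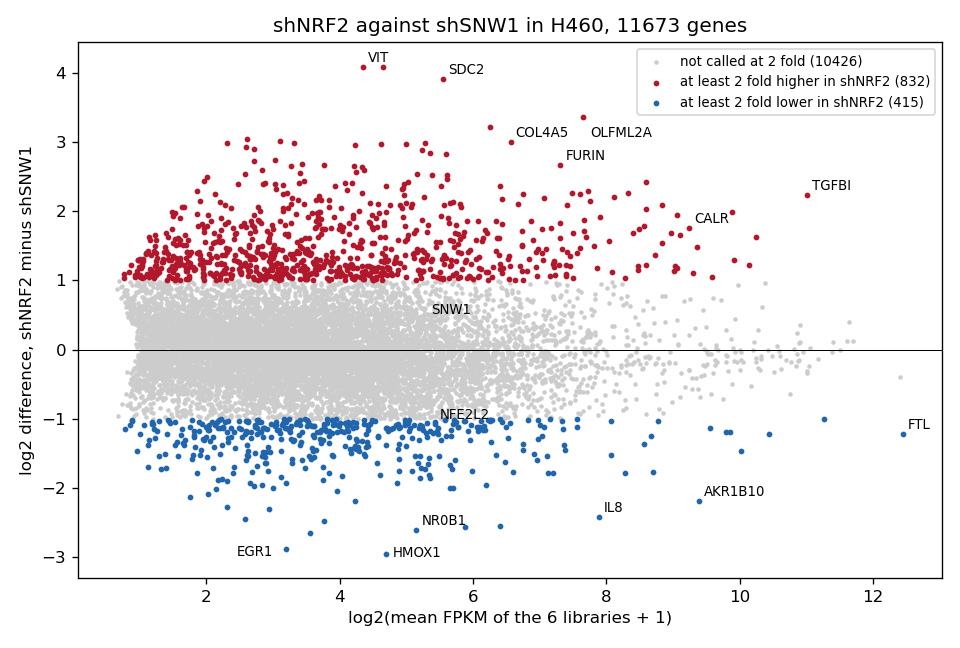
Each point is 1 of the 11673 tested genes, with its mean level over the 6 libraries on the x axis (log2(FPKM + 1)) and its difference, shNRF2 minus shSNW1, on the y axis (log2); colours mark calls of at least 2 fold. The 832 genes called higher in shNRF2 reach a difference of 4.09 and the 415 called lower reach -2.95.

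Both targeted genes were lowest in their own knockdown, which checks the labels. NFE2L2 stood at 25.8, 26.8 and 27.9 FPKM in the shNRF2 libraries and at 57, 58.3 and 56.5 FPKM in the shSNW1 libraries. The groups did not overlap, and the difference was -1.07 ± 0.0354 (log2, SE; limma adjusted p = 5.22e-09, n = 3 and 3). SNW1 stood at 43, 44.5 and 45.8 FPKM in shNRF2 and at 30.9, 34.3 and 31.5 FPKM in shSNW1. Here too every shSNW1 library was lower than every shNRF2 library, with a difference of 0.45 ± 0.0435 (log2; limma adjusted p = 7.81e-06). Both knockdowns left much of their target in place: NFE2L2 in shNRF2 was 62.1% of its shGFP mean of 43.3 ± 1.54 FPKM (SD, n = 3), and SNW1 in shSNW1 was 63.0% of its shGFP mean of 51.2 ± 1.65 FPKM. Each gene in the other knockdown lay at 132.0% of shGFP for NFE2L2 and at 86.8% for SNW1, so the arm that did not target the gene also lay off the control mean.

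**Figure D2:**
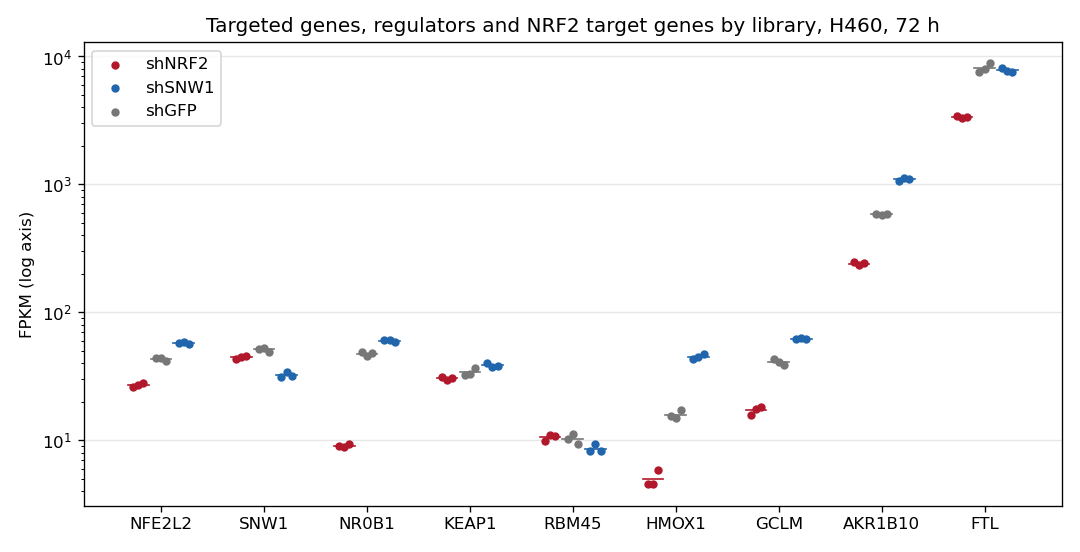
FPKM (log axis) of NFE2L2, SNW1, NR0B1, RBM45 and NRF2 pathway and target genes in each library of shNRF2, shSNW1 and shGFP. Points are libraries and short lines are means of 3. NFE2L2 and NR0B1 are lowest in the 3 shNRF2 libraries and SNW1 is lowest in the 3 shSNW1 libraries.

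NR0B1, the nuclear receptor the study examines, was 9.0, 8.82 and 9.35 FPKM in shNRF2 and 60.6, 60.2 and 58.8 FPKM in shSNW1. No library of one knockdown came near the other, and the difference of -2.60 ± 0.0345 (log2; limma adjusted p = 5.35e-11) was among the 12 largest decreases in shNRF2. The shGFP libraries, at 48.9, 45.7 and 48.2 FPKM, lay below shSNW1 and far above shNRF2. KEAP1, the adaptor that marks NRF2 for destruction, was lower in shNRF2, at 31.2, 29.5 and 30.5 FPKM against 40.1, 37 and 38.1 FPKM, a difference of -0.33. RBM45, an RNA-binding protein, was slightly higher in shNRF2, at 9.88, 11 and 10.8 FPKM against 8.21, 9.33 and 8.17 FPKM, a difference of 0.27 ± 0.0602 (limma adjusted p = 0.00223).

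NRF2 target genes were mostly lower in shNRF2 than in shSNW1. Of the 59 tested members of 4 target lists, 46 were lower (78.0% against 39.5% of all tested genes), 10 were higher and 3 were not called, and 24 were lower by at least 2 fold against 1 higher. Their median difference was -0.76, beside 0.01 over all tested genes. Among the 15 tested genes of glutathione and thioredoxin metabolism, 12 were lower (80.0% against 39.5%) and 3 higher, 1 of these through shNRF2 alone (SLC6A9), with a median of -1.04. GCLM, the modifier subunit of glutamate-cysteine ligase, was 15.8, 17.5 and 18 FPKM in shNRF2 and 61.5, 62.6 and 62.1 FPKM in shSNW1, with shGFP between them at 43, 40.6 and 38.6 FPKM. The groups were far apart, with a difference of -1.80 ± 0.0462 (log2; limma adjusted p = 1.11e-09). SRXN1, which reactivates oxidised peroxiredoxins, was 138, 138 and 141 FPKM against 469, 491 and 483 FPKM, a difference of -1.78. GSR, which reduces oxidised glutathione, differed by -1.45, and TXNRD1, which reduces thioredoxin, by -1.36. Members called the other way included SLC7A11, the cystine importer, at 50.7, 54.7 and 53.9 FPKM against 45.1, 43.2 and 43.4 FPKM, a difference of 0.27. GGT1, which cleaves extracellular glutathione, was also higher in shNRF2, with a difference of 0.48.

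All 8 tested genes of NADPH production and the pentose phosphate pathway were lower in shNRF2, against 39.5% of all tested genes, 2 of them by at least 2 fold, with a median of -0.79. MTHFD2, a mitochondrial enzyme of folate metabolism, was 43, 42.4 and 43.9 FPKM in shNRF2 and 144, 152 and 149 FPKM in shSNW1. The shGFP libraries, at 161, 163 and 153 FPKM, lay just above shSNW1, and the difference was -1.76 ± 0.0302 (log2; limma adjusted p = 1.07e-10). TKT, a transketolase of the pentose phosphate pathway, differed by -1.25, PPAT, the entry enzyme of purine synthesis, by -0.86, and IDH1, a cytosolic NADPH-producing dehydrogenase, by -0.81. The 6 heme and iron genes were lower as well, 3 of them by at least 2 fold. HMOX1, which opens the heme ring, had the most negative difference of the table under the rule for named genes: 4.5, 4.58 and 5.86 FPKM in shNRF2, 43.2, 44.5 and 47 FPKM in shSNW1 and 15.4, 14.9 and 17.1 FPKM in shGFP. shGFP lay between the knockdowns, and the difference was -2.95 ± 0.0795 (log2; limma adjusted p = 1.51e-09). The ferritin chains FTH1 and FTL, which store iron, differed by -1.46 and -1.22, and BLVRB, a biliverdin reductase, by -0.96. Ferritin genes have near-identical pseudogenes, and the treatment of shared reads is not given in the sources used here.

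Detoxification genes went both ways. Of their 30 tested genes 20 were lower (66.7% against 39.5%), 7 higher and 3 not called, and 11 were lower by at least 2 fold. AKR1B10, an aldo-keto reductase, was 247, 234 and 241 FPKM in shNRF2 and 1057, 1129 and 1098 FPKM in shSNW1. Every shSNW1 library was several fold higher, and the difference was -2.18 ± 0.0331 (log2; limma adjusted p = 6.92e-11). PTGR1, a reductase of lipid aldehydes and prostaglandins, differed by -1.78, ALDH3A1, an aldehyde dehydrogenase, by -1.77, and AKR1C2, an aldo-keto reductase of steroids, by -1.75. AKR1C genes are close copies of one another, so the split of reads among them is uncertain. Higher in shNRF2 were GSTM2, a glutathione transferase, at 9.86, 10.6 and 10.5 FPKM against 4.26, 3.81 and 4.76 FPKM (difference 1.11), and the efflux pump gene ABCC5 (difference 0.77). GSTM2 too has close paralogs.

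Promoter sequences are shown for a pair of these genes because they hold the core of the antioxidant response element. The window covered 250 bases before to 50 bases after an annotated start in the RefSeq promoter table (GRCh38.p14; the deposited values were made on hg19), and a gene was counted when any of its starts held the motif. TGACNNNGC, searched on both strands, was found in 5 of 7 matched NADPH genes (71.4%), in 10 of 24 detoxification genes (41.7%) and in 4384 of all 27305 genes with a promoter (16.1%). Several lists of other function lay above 16.1% too: endoplasmic reticulum folding, which ran the opposite way, at 30.0%, immediate early genes at 29.4%, SR and hnRNP regulators at 28.6%, heat shock genes at 26.3% and proteasome genes at 25.9%. The glutathione list could not be assessed because 10 of its 15 genes, fewer than 80%, had a promoter. Capitals mark the match, which lies on the opposite strand in both, from base -34 to -26 in GCLM (chr1:93909381-93909680, minus strand) and from base 7 to 15 in MTHFD2 (chr2:74198365-74198664, plus strand).
GCLM: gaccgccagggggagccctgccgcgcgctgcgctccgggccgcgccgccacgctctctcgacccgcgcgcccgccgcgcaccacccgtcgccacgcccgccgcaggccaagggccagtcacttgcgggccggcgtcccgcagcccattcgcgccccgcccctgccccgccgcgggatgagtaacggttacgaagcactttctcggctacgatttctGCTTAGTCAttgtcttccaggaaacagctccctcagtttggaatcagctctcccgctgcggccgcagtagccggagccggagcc
MTHFD2: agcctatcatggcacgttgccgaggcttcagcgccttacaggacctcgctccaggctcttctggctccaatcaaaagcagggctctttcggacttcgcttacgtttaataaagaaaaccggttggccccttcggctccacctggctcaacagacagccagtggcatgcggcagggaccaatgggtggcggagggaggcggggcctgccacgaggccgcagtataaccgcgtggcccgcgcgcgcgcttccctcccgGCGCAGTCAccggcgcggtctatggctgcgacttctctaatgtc
Besides TGACNNNGC, the motifs searched were the endoplasmic reticulum stress response element, TTTGAA and TGATGNAA (the C/EBP-ATF element, in 4.46% of all genes); none of these was found in either window, and a match is a description of letters, not a bound site.

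Regulators of the NRF2 pathway were also mostly lower in shNRF2. Of 12 tested, 9 were lower (75% against 39.5%), 1 was higher and 2 were not called, with a median of -0.35. The 9 include NFE2L2 itself, whose direction the knockdown set, and MAFF, which passed the expression rule through shSNW1 alone. SQSTM1, an autophagy receptor that binds KEAP1, was 228, 220.2 and 224 FPKM against 406, 399 and 405 FPKM, a difference of -0.85. MAFK, a small MAF partner of NRF2, was 43.8, 42.3 and 42.3 FPKM in shNRF2 and 76.4, 71.5 and 77.3 FPKM in shSNW1, but the shGFP libraries lay below both, at 35.7, 33.6 and 36 FPKM. The exception in direction was NFE2L1, the related factor NRF1 that drives proteasome genes, at 148, 143 and 138 FPKM against 70.6, 70.5 and 70.1 FPKM. Its difference of 1.01 ± 0.0312 (log2, limma adjusted p = 3.24e-09) was opposite in sign to that of NFE2L2. Of 32 proteasome genes, 29 were lower in shNRF2 (90.6% against 39.5%) and 1 higher, none by 2 fold, with a median of -0.39. The subunit genes PSMD14, PSMA3, PSMA5 and PSMD12 differed by between -0.72 and -0.62, and PSMB4 was the member called the other way, at 0.22.

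Amino acid and stress genes controlled by ATF4 leaned the same way as the NRF2 targets. Of 25 tested, 22 were lower in shNRF2 (88.0% against 39.5%), 8 of them by at least 2 fold and 2 through shSNW1 alone (ATF3 and CHAC1), and the median was -0.80. WARS, a tryptophan tRNA synthetase, was 63.1, 62.4 and 60.9 FPKM in shNRF2 and 212, 219 and 216 FPKM in shSNW1. TRIB3, a stress-induced pseudokinase, was 16.6, 15.9 and 16.5 FPKM against 55.9, 54.8 and 56.9 FPKM. PHGDH, the first enzyme of serine synthesis, was 25.4, 24.6 and 26 FPKM against 81.8, 77 and 77.5 FPKM. The differences of these 3 genes were -1.78, -1.71 and -1.60, respectively. The 2 members called higher were VLDLR, a lipoprotein receptor, with a difference of 2.10, and SLC3A2, the heavy chain of several amino acid transporters, with 0.16. Heat shock genes were lower in 15 of 21 cases (71.4% against 39.5%) and higher in 5, with a median of -0.29. HSP90AA1, the inducible HSP90 chaperone, differed by -1.13, its cofactor STIP1 by -0.99 and HSPH1 by -0.83, whereas the small chaperone genes CRYAB and HSPB1 were higher, at 1.42 and 0.40. Cholesterol synthesis genes were lower in 16 of 24 cases (66.7% against 39.5%), none by 2 fold, with ACAT2 at -0.86, IDI1 at -0.67 and FDFT1 at -0.59. TM7SF2, a sterol reductase, was the 1 gene of that list called higher by 2 fold, at 1.42, and PMVK, a mevalonate pathway kinase, was higher, at 0.31.

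**Figure D3:**
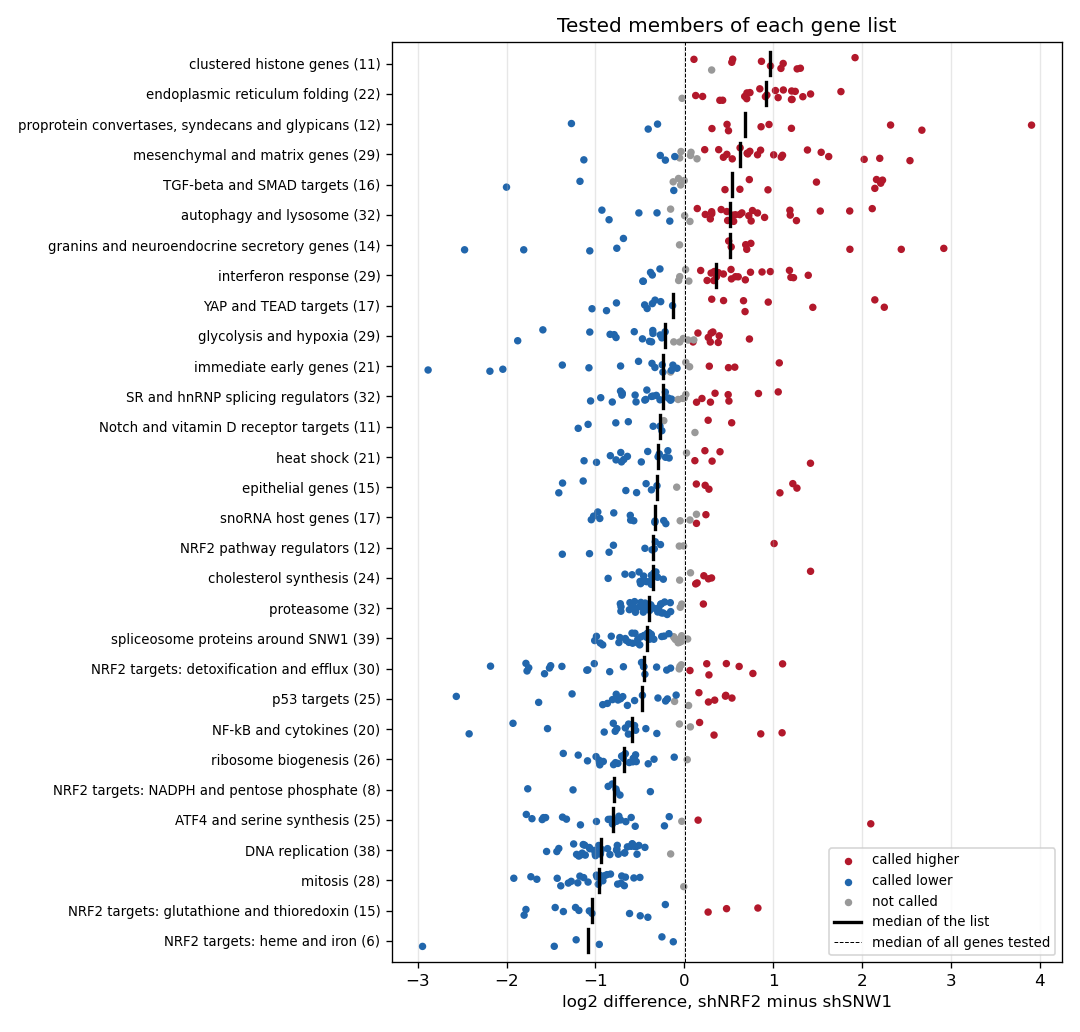
Difference, shNRF2 minus shSNW1 (log2), of every tested member of each gene list, without the immune, fibroblast and endothelial, and lung lineage marker lists. Points are genes, the vertical mark is the list's median and the dashed line is the median of all tested genes. Mitosis (27 of 28 lower) and DNA replication (37 of 38 lower) lie left of 0, and endoplasmic reticulum folding (21 of 22 higher) lies right of it.

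Chaperones and folding enzymes of the endoplasmic reticulum were higher in shNRF2. Of 22 tested genes 21 were higher (95.5% against 40.3%), 10 of them by at least 2 fold, none was lower and 1 was not called, and the median was 0.92. CALR, the calcium-binding chaperone calreticulin, was 931, 959 and 907 FPKM in shNRF2, 269, 276 and 277 FPKM in shSNW1 and 385, 400.4 and 421 FPKM in shGFP. Every shNRF2 library was more than 3 fold above every shSNW1 library, and the difference was 1.76 ± 0.0289 (log2; limma adjusted p = 9.26e-11). DNAJC3, a co-chaperone that restrains the kinase PERK, differed by 1.42, DNAJB9, a co-chaperone of HSPA5, by 1.34, and SEL1L, part of the complex that removes misfolded proteins, by 1.25. The promoters of CALR and of HSPA5, the main chaperone of this compartment, are shown because they hold the full endoplasmic reticulum stress response element. HSPA5 lies outside the rule for named genes and was chosen after its values were seen, at 725, 742 and 724 FPKM in shNRF2 and 312, 313 and 319 FPKM in shSNW1 (difference 1.21). The element, a CCAAT box and CCACG with any 9 bases between them, searched on both strands, was found for 7 of 20 matched genes of the list (35.0%: HSPA5, HSP90B1, CALR, CANX, PDIA6, CRELD2 and XBP1) and for 25 of all 27305 genes (0.0916%). Capitals mark the match at bases -66 to -48 of HSPA5 (chr9:125241294-125241593, minus strand) and, on the opposite strand, at bases -225 to -207 of CALR (chr19:12938359-12938658, plus strand).
HSPA5: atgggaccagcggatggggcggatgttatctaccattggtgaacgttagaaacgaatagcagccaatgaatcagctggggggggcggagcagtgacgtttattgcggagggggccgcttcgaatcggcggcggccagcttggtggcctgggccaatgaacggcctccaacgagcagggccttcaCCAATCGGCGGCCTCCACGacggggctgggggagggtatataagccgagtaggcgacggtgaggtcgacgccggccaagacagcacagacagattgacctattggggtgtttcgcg
CALR: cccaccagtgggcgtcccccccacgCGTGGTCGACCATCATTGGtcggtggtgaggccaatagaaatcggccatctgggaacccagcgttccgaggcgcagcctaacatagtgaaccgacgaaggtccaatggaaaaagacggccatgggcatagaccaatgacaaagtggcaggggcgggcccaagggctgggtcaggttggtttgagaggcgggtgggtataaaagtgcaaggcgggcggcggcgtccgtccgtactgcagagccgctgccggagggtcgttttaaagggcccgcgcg
The CALR window also held 1 match to another of the motifs searched, TGACNNNGC, which did not overlap the marked one.

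Lysosome and autophagy genes also leaned towards shNRF2. Of 32 tested, 24 were higher (75% against 40.3%), 6 of them by at least 2 fold, and 5 were lower, with a median of 0.52. WIPI1, which acts in autophagosome formation, was 35.8, 35 and 33.5 FPKM in shNRF2 and 7.64, 7.72 and 6.46 FPKM in shSNW1. GABARAPL1, an ATG8-family protein of autophagosomes, was 104, 109 and 101 FPKM against 27.3, 29.8 and 27 FPKM. Their differences were 2.12 and 1.86. LAMP1, a lysosomal membrane protein, differed by 1.26. GLA, a lysosomal galactosidase, and SQSTM1 were lower in shNRF2, at -0.93 and -0.85.

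Cell division genes were lower in shNRF2 almost throughout. Of 28 mitosis genes 27 were lower (96.4% against 39.5%), 11 of them by at least 2 fold, and 1 was not called, with a median of -0.96. Of 38 DNA replication genes 37 were lower (97.4% against 39.5%), 15 of them by at least 2 fold, and 1 was not called, with a median of -0.94. MAD2L1, a spindle checkpoint protein, was 9.8, 12.2 and 11.6 FPKM in shNRF2 and 45.7, 45.9 and 43.2 FPKM in shSNW1, while shGFP stood above both at 69.7, 66.6 and 63 FPKM. Its difference of -1.92 ± 0.068 (log2; limma adjusted p = 7.75e-09) was the most negative of the mitosis list. PLK1, a kinase of mitotic entry, was 23.6, 21.7 and 23.4 FPKM against 79.6, 77.2 and 77 FPKM, with shGFP at 69, 71.8 and 74 FPKM. The PLK1 difference was -1.73 ± 0.0379. CDC20, an activator of the anaphase-promoting complex, differed by -1.66, and KIF2C, a microtubule-depolymerising kinesin, by -1.43. Among replication genes, CDT1, which licenses origins, was 4.76, 5.51 and 5.39 FPKM in shNRF2, 18.3, 15.8 and 17.6 FPKM in shSNW1 and 23, 22.6 and 26 FPKM in shGFP. Again shGFP lay above both knockdowns, and the difference was -1.55. MCM2, part of the replicative helicase, differed by -1.43, and the clamp loader genes RFC4 and RFC3 by -1.41 and -1.24. Differences in the share of dividing cells were not measured.

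The promoters of PLK1 and MAD2L1 are shown for the cell cycle homology region, an element of genes expressed in G2 and mitosis. Its core TTTGAA, searched on both strands, was found for 15 of 23 matched mitosis genes (65.2%), for 1 of 34 matched DNA replication genes (2.94%) and for 4961 of all 27305 genes (18.2%). Of the other lists that could be assessed, TGF-beta and SMAD targets, at 38.5%, and spliceosome proteins, at 25.0%, also lay above 18.2% by some margin. The mitosis and DNA replication lists were both lower in shNRF2, and the motif was frequent in the mitosis list and rare in the replication list. Capitals mark the match at bases -29 to -24 of PLK1 (chr16:23678639-23678938, plus strand) and at bases 25 to 30 of MAD2L1 (chr4:120066799-120067098, minus strand).
PLK1: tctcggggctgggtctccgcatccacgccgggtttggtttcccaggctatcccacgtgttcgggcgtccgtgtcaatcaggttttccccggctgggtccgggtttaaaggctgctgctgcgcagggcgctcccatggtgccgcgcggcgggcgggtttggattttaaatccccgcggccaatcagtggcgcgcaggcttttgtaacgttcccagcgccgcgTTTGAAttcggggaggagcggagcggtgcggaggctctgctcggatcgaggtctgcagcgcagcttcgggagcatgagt
MAD2L1: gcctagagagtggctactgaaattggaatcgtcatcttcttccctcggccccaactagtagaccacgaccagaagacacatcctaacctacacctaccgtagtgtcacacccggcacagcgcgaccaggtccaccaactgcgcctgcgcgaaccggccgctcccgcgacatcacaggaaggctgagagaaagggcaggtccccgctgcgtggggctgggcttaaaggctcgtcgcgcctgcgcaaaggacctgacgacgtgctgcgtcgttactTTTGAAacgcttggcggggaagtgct
No other of the motifs searched was found in these windows.

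Clustered histone genes ran opposite to the replication list. Of 22 listed genes 11 were tested, of which 10 were higher in shNRF2 (90.9% against 40.3%), 5 by at least 2 fold, and none was lower. HIST1H2AC was 24.6, 21.4 and 22.5 FPKM in shNRF2, 4.73, 4.9 and 6.31 FPKM in shSNW1 and 4.57, 3.54 and 5.65 FPKM in shGFP. HIST2H2BE was 7.64, 8.11 and 8.15 FPKM against 2.72, 2.83 and 2.34 FPKM, with shGFP at 0.637, 0.826 and 0.55 FPKM. In both genes the shNRF2 libraries were the highest, with differences of 1.92 and 1.31. HIST1H2BC and HIST1H2BD differed by 1.11 and 1.09. Most histone messages lack a poly(A) tail and the libraries were made from polyA RNA, and histone genes are close copies of each other, so these values cover only the part of histone RNA that was captured. Targets of p53 were lower in 17 of 25 cases (68.0% against 39.5%) and higher in 6, with a median of -0.47. GDF15, a stress-induced cytokine, was 16.4, 14.8 and 16.8 FPKM in shNRF2, 100.3, 96.7 and 102 FPKM in shSNW1 and 44.2, 44.4 and 47.4 FPKM in shGFP, so that the knockdowns lay on opposite sides of shGFP, and differed by -2.57. PMAIP1, a pro-apoptotic BH3 protein, differed by -1.64, BTG2, an antiproliferative factor, by -1.26, and MDM2, the ubiquitin ligase of p53, by -0.92. PERP and ZMAT3 were higher, at 0.54 and 0.47.

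Genes for building ribosomes were lower in shNRF2 in 25 of 26 cases (96.2% against 39.5%), 3 of them by at least 2 fold, with a median of -0.68. FBL, the methyltransferase of box C/D small nucleolar RNPs, was 57.8, 61.8 and 59.1 FPKM in shNRF2 and 151, 158 and 155 FPKM in shSNW1. NPM1, a nucleolar chaperone, was 528, 590.0 and 575 FPKM against 1269, 1365 and 1240.2 FPKM. The differences were -1.36 and -1.19, and NPM1 has many processed pseudogenes. RRP12 and UTP20, factors of small subunit processing, differed by -1.09 and -0.99. Among 17 host genes of small nucleolar RNAs, 12 were lower (70.6% against 39.5%) and 2 higher, with a median of -0.33. EPB41L4A-AS1, SNHG12, SNHG15 and SNHG3 differed by -1.05, -1.02, -0.97 and -0.95, and SNHG16 and SNHG7 were higher, at 0.24 and 0.14. The library kit does not mark strand, so reads of EPB41L4A-AS1 and of overlapping genes cannot be told apart.

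Splicing genes, the complex SNW1 belongs to, were lower in shNRF2, which here means higher in the SNW1 knockdown than in the NRF2 knockdown. The comparison does not place these lists against shGFP. Of 39 spliceosome proteins around SNW1, 30 were lower (76.9% against 39.5%), 9 were not called and none was higher, and 1 passed 2 fold; the median was -0.41. SF3B2, of the U2 particle, was 48.6, 49 and 49 FPKM in shNRF2, 99.7, 100.4 and 97.7 FPKM in shSNW1 and 69.4, 71.7 and 77.3 FPKM in shGFP. PRPF4, of the tri-snRNP, was 18.8, 21.2 and 20.1 FPKM, 40.7, 42.1 and 39.2 FPKM and 29.8, 29.2 and 28.4 FPKM, respectively. In both genes shGFP lay between the knockdowns, and the differences were -1.01 and -0.99. SF3A3, also of the U2 particle, differed by -0.94, and U2AF1, which recognises the 3′ splice site, by -0.92. Among 32 SR and hnRNP regulators 20 were lower (62.5% against 39.5%) and 8 higher, with a median of -0.24. HNRNPD, an RNA-binding protein, differed by -1.05 and SRPK1, a kinase of SR proteins, by -0.94. The other SR protein kinases named, CLK1 and CLK4, were higher in shNRF2: CLK1 stood at 20.6, 22 and 22.8 FPKM against 9.8, 10.6 and 9.47 FPKM, a difference of 1.06, and CLK4 differed by 0.84.

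Targets of the signals that SNW1 has been linked to went in both directions. Of 11 tested Notch and vitamin D receptor targets, 7 were lower in shNRF2 (63.6% against 39.5%) and 2 higher. NOTCH1, a Notch receptor, was 2.15, 2.28 and 2.26 FPKM against 6.87, 6.12 and 6.21 FPKM, a difference of -1.19, and NOTCH3 differed by -0.63, MYC, a growth-promoting factor, by -1.08 and CCND1, a G1 cyclin, by -0.27. SPRY2 was higher, at 0.27. In contrast, 9 of 16 TGF-beta and SMAD targets were higher (56.2% against 40.3%), 5 of them by at least 2 fold, and 3 were lower, with a median of 0.54. TGFBI, a secreted matrix protein, was 3469, 3456 and 3264 FPKM in shNRF2, 711, 716 and 739 FPKM in shSNW1 and 1189, 1202 and 1265 FPKM in shGFP. TGFB2, a ligand, was 59.9, 64.4 and 61.7 FPKM, 12.9, 12.7 and 12.1 FPKM and 29, 29.6 and 27.3 FPKM, respectively. TGFBR2, the ligand-binding receptor, was 22.1, 22.8 and 22 FPKM, 4.1, 3.94 and 4.57 FPKM and 9.01, 9.16 and 8.74 FPKM. In all 3 genes shGFP lay between the knockdowns, and the differences were 2.23, 2.21 and 2.16. Among those called the other way was ID1, an inhibitor of helix-loop-helix factors, with a difference of -1.17. ID1 was 38.4, 40.3 and 42.3 FPKM in shNRF2, 96.5, 86.5 and 93.8 FPKM in shSNW1 and 35.8, 32.2 and 37.5 FPKM in shGFP, so shGFP was nearest to shNRF2.

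Targets of YAP and TEAD were split, with 8 of 17 higher (47.1% against 40.3%), 9 lower (52.9% against 39.5%) and a median of -0.13. CTGF, a matricellular protein that is also on the TGF-beta list, was 345, 367 and 344 FPKM against 80.7, 75.6 and 80.2 FPKM, a difference of 2.15. CRIM1, a membrane protein that binds bone morphogenetic proteins, differed by 2.25 and NT5E, an ecto-nucleotidase, by 1.45. TEAD4, a DNA-binding partner of YAP, was lower in shNRF2, at -1.04. Interferon response genes were higher in 20 of 29 cases (69.0% against 40.3%), 4 of them by at least 2 fold and 2 through shNRF2 alone (IFIT1 and IRF7), and lower in 5, with a median of 0.36. Among the leading members were OAS1, an antiviral RNA sensor, at 217, 220.1 and 216 FPKM against 87.2, 95.5 and 94.5 FPKM, and the class I antigen-presenting genes HLA-B and HLA-C. Their differences were 1.23, 1.40 and 1.2, and the HLA genes are close copies of each other. OAS3 and IFI44, both interferon-induced, were lower, at -0.46 and -0.38.

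Inflammatory and immediate early genes held some of the largest decreases of the comparison. Of 20 NF-kB targets and cytokines 14 were lower in shNRF2 (70.0% against 39.5%), 3 of them by at least 2 fold and 2 through shSNW1 alone (IL1B and PTX3), with a median of -0.59. IL8, a neutrophil chemokine, was 73.6, 71.9 and 75.4 FPKM in shNRF2, 400.1, 400.4 and 395 FPKM in shSNW1 and 290.0, 274 and 254 FPKM in shGFP. CXCL2, a related chemokine, was 1.42, 1.76 and 1.68 FPKM, 8.5, 9.67 and 8.74 FPKM and 9.0, 9.8 and 8.18 FPKM, respectively. Both were lowest in shNRF2 without overlap, with differences of -2.42 and -1.93, and IL6, a pleiotropic cytokine, differed by -0.90. TNFAIP3, an inhibitor of NF-kB signalling, was higher, at 118, 116 and 112 FPKM against 61.7, 64.9 and 62.9 FPKM (difference 0.86), as was NFKB1, by 0.34. Immediate early genes were lower in 14 of 21 cases (66.7% against 39.5%), 1 of them through shSNW1 alone (MAFF), and higher in 4. EGR1, a zinc finger factor induced by growth signals, was 1.09, 1.26 and 1.24 FPKM in shNRF2, 14.8, 14.8 and 15.9 FPKM in shSNW1 and 1.47, 1.85 and 1.84 FPKM in shGFP. shGFP was close to shNRF2, and the 3 shSNW1 libraries stood apart from the other 6, with a difference of -2.88 ± 0.0536 (log2; limma adjusted p = 1.62e-10). FOSL1, an AP-1 subunit, showed another order, with 5.97, 5.6 and 5.76 FPKM in shNRF2, 29.8, 29.1 and 30.7 FPKM in shSNW1 and 23.3, 24.6 and 27.3 FPKM in shGFP. There shGFP was close to shSNW1, and the difference was -2.19. DUSP5, a phosphatase of ERK, differed by -2.04, whereas the phosphatase genes DUSP6 and DUSP4 were higher, at 1.07 and 0.57.

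Extracellular matrix genes were mostly higher in shNRF2. Of 29 mesenchymal and matrix genes, 20 were higher (69.0% against 40.3%), 9 of them by at least 2 fold and 2 through shNRF2 alone (CDH2 and COL5A1), and 4 were lower, with a median of 0.63. COL5A1, a fibrillar collagen chain, was 9.55, 8.99 and 8.95 FPKM in shNRF2 and 0.806, 0.664 and 0.77 FPKM in shSNW1. LAMB1, a laminin chain of basement membranes, was 464, 473 and 430.0 FPKM against 97.5, 99.5 and 97.7 FPKM, with shGFP between them at 189, 200.1 and 196 FPKM. COL5A1 and LAMB1 differed by 2.54 and 2.20, and LAMC1 and COL5A2 by 2.03 and 1.63. SNAI1, a repressor of epithelial genes, and COL4A2, a basement membrane collagen, were lower in shNRF2, at -1.13 and -0.21. The epithelial list was split, with 6 of 15 higher (40.0% against 40.3%) and 8 lower (53.3% against 39.5%), 2 of the latter through shSNW1 alone (CLDN7 and EPCAM). JUP and DSG2, of desmosomes, were higher, at 1.22 and 1.27, and CLDN4, a tight junction protein, and KRT80, a keratin, were lower, at -1.41 and -1.37. Among markers of fibroblasts and endothelium, DCN, a matrix proteoglycan, was 9.75, 11.1 and 10.2 FPKM against 0.692, 0.796 and 0.653 FPKM (difference 2.73, with the expression rule met in shNRF2 alone) and LUM, another, differed by 1.22, while COL3A1 was lower, at -0.45. ACTA2, smooth muscle actin, differed by 0.12, and its call was lost under median-ratio scaling, at 0.09 with a limma adjusted p of 0.0559. The monocyte receptor gene CD14 was higher, at 1.31 and CD68 lower, at -0.28; the other 12 of 14 immune markers were below the expression rule. FOXA1, a forkhead factor of lung epithelium and the 1 lineage marker tested of 11, was 52.8, 50.9 and 51.9 FPKM in shNRF2 and 15.6, 15.1 and 15.7 FPKM in shSNW1, a difference of 1.68. The part of other cell types in the matrix differences was not tested.

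Proprotein convertases, which cut precursors of growth factors and hormones, and the heparan sulfate carriers of the cell surface were higher in 9 of 12 cases (75% against 40.3%) and lower in 3, with a median of 0.68. SDC2, a syndecan, was 84.1, 88.8 and 88.2 FPKM in shNRF2, 4.86, 4.83 and 4.88 FPKM in shSNW1 and 7.92, 7.54 and 7.52 FPKM in shGFP. FURIN, a convertase of the secretory pathway, was 287, 269.6 and 265 FPKM, 42.3, 40.5 and 43.2 FPKM and 22, 22.2 and 26.2 FPKM, respectively. For SDC2 shGFP lay between the knockdowns and for FURIN it lay below both, and the differences were 3.91 ± 0.0347 and 2.67 ± 0.0379 (log2). SDC3, another syndecan, was higher, at 2.32, whereas SDC4 and the glypican gene GPC1 were lower, at -1.27 and -0.41. Neuroendocrine secretory genes went both ways, with 8 of 14 higher (57.1% against 40.3%) and 5 lower (35.7% against 39.5%). Of the 8, 4 passed through shNRF2 alone (CPE, PCSK2, SNAP25 and SYP) and so had to differ. That leaves 4 higher and 5 lower. PCSK2, a hormone convertase, was 9.4, 10.6 and 8.87 FPKM in shNRF2 and 0.383, 0.386 and 0.425 FPKM in shSNW1, PCSK1 differed by 2.44, and the adhesion molecule gene NCAM1 by 1.86. The PCSK2 difference was 2.92, with the expression rule met in shNRF2 alone. VGF, a granin-like precursor, was 2.88, 3.2 and 3.31 FPKM in shNRF2, 22.5, 21.2 and 22 FPKM in shSNW1 and 43.9, 40.8 and 42.3 FPKM in shGFP, so both knockdowns lay below the control level. CHGA, chromogranin A, had yet another order, at 9.71, 10.4 and 9.32 FPKM, 36, 38.2 and 36.3 FPKM and 4.54, 4.09 and 3.96 FPKM, with shSNW1 above all others. Their differences were -2.47 and -1.81.

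Glycolysis and hypoxia genes were lower in 15 of 29 cases (51.7% against 39.5%) and higher in 9 (31.0% against 40.3%), with a median of -0.21. CA9, a hypoxia-induced carbonic anhydrase, was 1.14, 0.529 and 1.19 FPKM in shNRF2 and 6.07, 5.67 and 6.51 FPKM in shSNW1, a difference of -1.87. HK2, the hexokinase that opens glycolysis, differed by -1.59, ENO2, an enolase, by -1.06 and PGAM1, a mutase of lower glycolysis, by -0.83. P4HA1, which hydroxylates collagen, and CA12, another carbonic anhydrase, were higher, at 0.73 and 0.39.

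The 12 largest increases and the 12 largest decreases, among genes without overlap and with at least 5 FPKM in the higher group, included NR0B1, HMOX1, EGR1, GDF15, IL8, FOSL1, VGF and SDC2 from above. VIT, a secreted matrix protein, was 37.3, 38.2 and 36.6 FPKM in shNRF2, 1.44, 1.31 and 1.03 FPKM in shSNW1 and 4.8, 4.86 and 4.51 FPKM in shGFP. PCDH20, a protocadherin of cell adhesion, was 45.7, 47.9 and 46.2 FPKM, 1.93, 1.66 and 1.83 FPKM and 3.86, 4.0 and 4.16 FPKM, respectively. In both, shNRF2 stood far above the other groups and shGFP was closer to shSNW1, with differences of 4.09 ± 0.0658 and 4.08 ± 0.0473 (log2; limma adjusted p = 8.58e-11 and 4.08e-11). Among the remaining increases, OLFML2A, a secreted olfactomedin-domain protein, differed by 3.36, CLEC3B, the plasminogen-binding tetranectin, by 3.04, and PLCD4, a phospholipase C, by 3.01. COL4A5, a basement membrane collagen, was 167, 173 and 161 FPKM against 19.5, 19.9 and 20.7 FPKM, a difference of 3.0. PDK4, which inhibits pyruvate dehydrogenase, was 65.7, 71.2 and 68.2 FPKM against 7.53, 7.7 and 7.97 FPKM, a difference of 2.99. SEMA5A, a guidance cue, and MGAT4C, a glycosyltransferase, both differed by 2.98, and TMEM59L, a membrane protein, by 2.97. CLEC3B, PLCD4 and MGAT4C reached 1 FPKM in the shNRF2 libraries alone and so had to differ. MGAT4C stood at 0.103, 0.126 and 0.117 FPKM in shSNW1, from 4 to 5 reads per library. Without the pseudocount, the ratio of mean FPKM was 67.8 for MGAT4C and 13.5 for SEMA5A.

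Among the decreases, PPIF, the mitochondrial cyclophilin of the permeability transition pore, was 22.9, 24.5 and 24.2 FPKM in shNRF2, 144, 141 and 145 FPKM in shSNW1 and 128, 127 and 131 FPKM in shGFP. Here shGFP was close to shSNW1, and the difference was -2.54 ± 0.0334 (log2; limma adjusted p = 5.35e-11). DAW1, a dynein assembly factor of cilia, was 1.82, 2.29 and 2.67 FPKM against 19, 20.7 and 18.3 FPKM, a difference of -2.65. LOC643723, named only by its identifier, was 1.25, 0.65 and 0.712 FPKM against 8.63, 9.16 and 9.48 FPKM, a difference of -2.45. The small nucleolar RNAs SNORD38B and SNORD46, guides of ribosomal RNA methylation, were also among the 12. SNORD38B was 0, 3.41 and 2.52 FPKM in shNRF2 and 9.35, 13.4 and 11.5 FPKM in shSNW1, from 0 to 4 reads per library in the former and from 13 to 19 in the latter. SNORD46 was 0, 1.2 and 1.18 FPKM against 8.1, 6.95 and 6.34 FPKM, from 0 to 2 reads against 11 to 16. The groups did not overlap, but with lengths of 69 and 98 bases, as recovered from the FPKM values, these values rest on few reads, and the differences were -2.30 ± 0.455 and -2.26 ± 0.263.

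**Figure D4:**
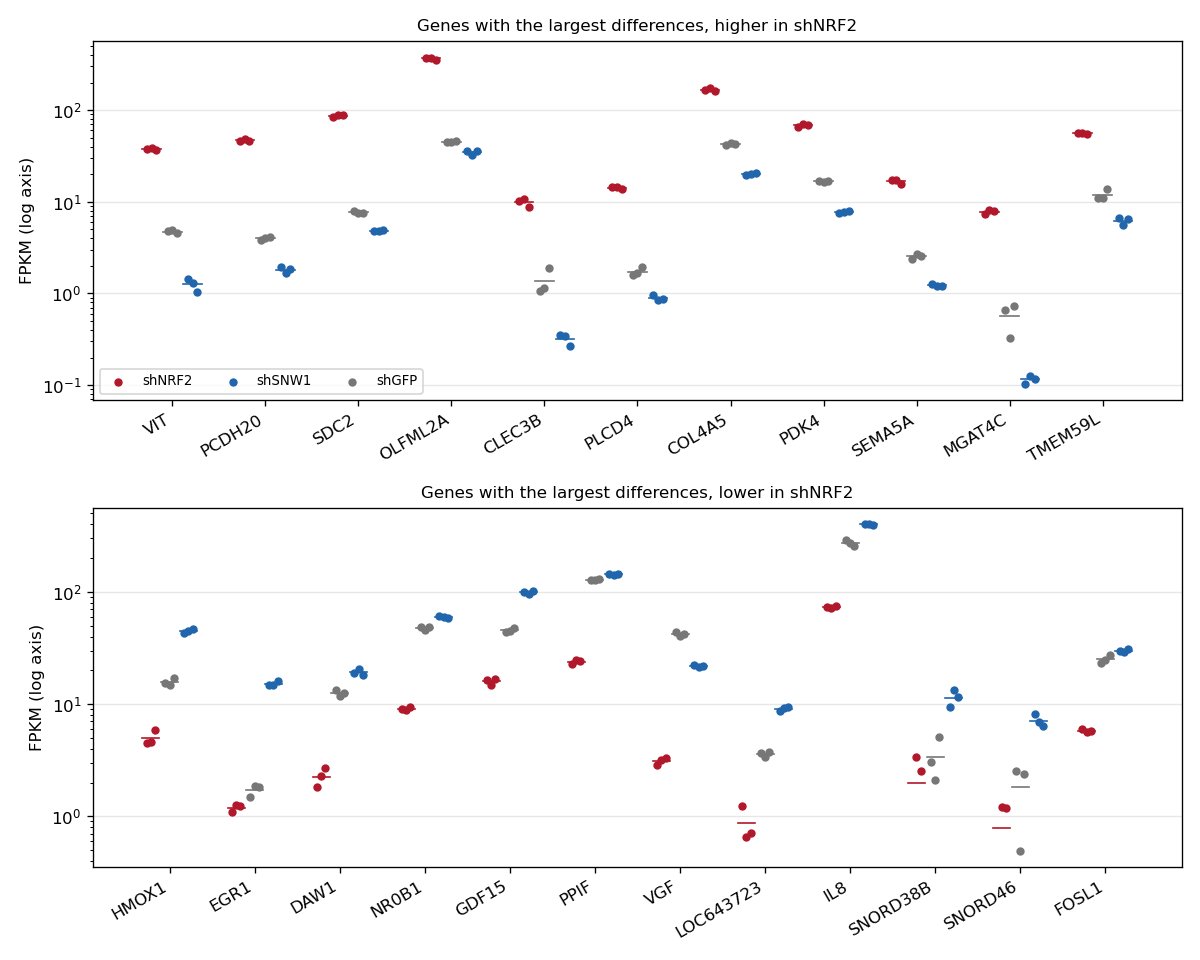
FPKM (log axis) of 11 of the 12 genes with the largest increase and of the 12 with the largest decrease, in each library of shNRF2, shSNW1 and shGFP; points are libraries and short lines are means of 3. Only genes whose shNRF2 and shSNW1 values do not overlap could be chosen, so the separation of the points was set by the choice. For SNORD38B and SNORD46, 1 shNRF2 value of 0 each cannot be drawn on this axis.

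Because both arms are knockdowns, a difference of at least 2 fold does not say which arm lay away from the control level. Of the 832 genes higher in shNRF2, the shGFP mean lay between the knockdown means and nearer to shSNW1 for 513 (61.7%), between them and nearer to shNRF2 for 137 (16.5%), below the shSNW1 mean for 169 (20.3%) and above the shNRF2 mean for 13 (1.56%). Of the 415 genes lower in shNRF2, the corresponding numbers were 177 (42.7%) between and nearer to shSNW1, 63 (15.2%) between and nearer to shNRF2, 157 (37.8%) above the shSNW1 mean and 18 (4.34%) below the shNRF2 mean. The genes were chosen for their difference between the knockdowns, so these shares are a description, and NR0B1, PPIF and FOSL1 stand for the first pattern and EGR1, CHGA and ID1 for genes with shSNW1 away from both other groups. Transcript length also moved with the direction of the difference. Lengths were recovered from the FPKM values only relative to one another, and were put in bases by the smallest scale on which nearly all came out whole, which sets GAPDH at 1610 bases. On that scale the median length was 3087 bases over all tested genes, 3434 bases for those at least 2 fold higher and 2098 bases for those at least 2 fold lower in shNRF2, and its part in the differences was not tested.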

How the data were processed

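Messenger RNA was sequenced from H460 cells after knockdown, with polyA libraries made with a TruSeq kit, per the labels' protocols. The authors deposited 1 table of FPKM values per gene and library, per the file headers. Alignment with STAR, counting with featureCounts, DESeq2 and the build hg19 are named in the submitters' processing notes; not given in the sources used here were versions, annotation, strand setting and the handling of shared reads. The 12 columns of the H460 knockdowns were mapped by their names, 6 of them were fitted, and 15 other value columns and the peak lists were not used. FPKM values are whole multiples of 1 read per gene and library: reads came out whole, within 0.02 reads, for 100% of the 11938 genes where this was checked, and gave the depths printed. On the counts so recovered, voom of limma called 9479 genes as an alternative.

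Genes with at least 1 FPKM in 3 of the 6 libraries were tested on log2 values of the deposited FPKM plus a pseudocount of 1 with limma 3.58.1 (R 4.3.3, 2 groups of 3, trended variance, two-sided), with Benjamini-Hochberg adjustment over all 11673 genes and a threshold of 0.05. The code was tested on simulated data. Named genes were the targeted and study genes, the 12 largest changes each way without overlap and with at least 5 FPKM in the higher group, and up to 4 genes per list by the same conditions plus up to 2 against the list's direction; 4 of these genes are not reported here. The members, lists and tests were chosen with earlier results of these data known, so counts over lists are descriptions. The names TIGAR, SUSD6, HNRNPDL and PKM2 had no match in the table. Promoters were matched by symbol to RefSeq, for 8592 of the 11673 tested genes, on GRCh38.p14. Alternatives changed the pseudocount, filter, scaling, libraries, variance model, replicate block and test.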

Additional observations from a re-analysis of the deposited data

How the results depend on the processing

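The main counts were 9322 called genes, 4706 higher and 4616 lower in shNRF2, and 1247 of at least 2 fold, 832 higher and 415 lower. The number at least 2 fold lower was 657 with a pseudocount of 0.1 FPKM and 679 with voom on the recovered reads, and voom gave 1889 of at least 2 fold in all; the cause was not tested, although a smaller pseudocount by construction shrinks low genes less. Leaving out each library in turn gave 8960 to 9143 called genes, 4537 to 4616 higher, 4416 to 4527 lower, 1233 to 1288 of at least 2 fold, 827 to 845 higher and 402 to 448 lower by 2 fold. All other alternatives kept these counts within 1.5 times: no filter (10600 of 17639 genes), at least 5 FPKM (7149 of 8527), and median-ratio scaling (4450 higher and 4905 lower), for example. Of the 172 named genes, ACTA2 under median-ratio scaling was the 1 value that lost its call, and none reversed. Of the list counts, 9 of 612 left that range, all with the filter at 5 FPKM, which tests fewer genes, and leaving out shSNW1 replicate 2 gave 5 TGF-beta targets lower against 3. Libraries with the same replicate number shared little deviation (correlations of deviations 0.07, 0.04 and -0.04), which cannot settle whether the samples were paired. Not every library correlated best with its own number, and a replicate block called 9291 genes, 4685 higher and 4606 lower. Depth limits genes near 1 FPKM and short RNAs.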

Other observations

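The following gene families were picked after their values had been seen, so their counts are descriptions with no test, to be read against 40.3% higher and 39.5% lower over all tested genes. Small nucleolar and Cajal body RNAs, which guide the modification of ribosomal and spliceosomal RNA, were lower in shNRF2 than in shSNW1: of 392 listed genes, 152 were tested, of which 98 were lower, 3 higher and 51 not called, with a median difference of -0.80 (log2). Of the 98, 9 had 1 FPKM or more in the shSNW1 libraries alone and so had to differ, which leaves 89 lower. Their median length, on a scale recovered from the FPKM values, was 90 bases. As a share of all reads counted to genes, their summed level was 61.9, 68.5 and 73.2 RPM in shNRF2, 145.6, 140.8 and 141.9 in shSNW1 and 95.2, 92.1 and 91.9 in shGFP. The knockdowns thus lay on opposite sides of the control libraries without overlap, from 1035 to 1324 reads per library in shNRF2 and from 2432 to 2847 in shSNW1. SNORA40 was 9.98, 14.8 and 13.2 FPKM in shNRF2 and 43.8, 48.7 and 41.8 FPKM in shSNW1. These RNAs carry no poly(A) tail and most lie in introns of longer genes, so reads of their host transcripts, spliced or not, may be included, and this was not tested.

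Protocadherins, adhesion proteins encoded in large part by gene clusters, ran the other way: the 17 tested of 72 were higher in shNRF2, 15 of them by at least 2 fold, with a median difference of 1.37. Of the 17, 7 passed the expression rule through shNRF2 alone and had to differ, which leaves 10 higher. PCDH7 was 13.9, 12.7 and 12.9 FPKM in shNRF2 and 1.01, 1.2 and 1.15 FPKM in shSNW1. PCDHB11 was 9.28, 10.6 and 9.31 FPKM against 2.26, 1.61 and 1.99 FPKM. Clustered members share exons or are close copies, so their reads are not independent. Of 21 tubulin genes, 14 were lower in shNRF2 and 5 higher, with a median of -0.60. TUBA1B, the main alpha tubulin of dividing cells, was 297, 276 and 293 FPKM in shNRF2 and 586, 601 and 581 FPKM in shSNW1, and TUBB4A was higher, with a difference of 0.50. Nucleoporins were lower in 16 of 20 cases and higher in 2 (median -0.53), NUP188 among them with a difference of -1.13. Mitochondrial ribosomal proteins were lower in 58 of 78 cases and higher in 11 (median -0.36), and cytosolic ribosomal proteins were lower in 36 of 77, higher in 14 and not called in 27 (median -0.08).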
